A study of Mus musculus with 27 samples.

Results

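The target genes of PPAR-alpha examined here were Cyp4a10, Cyp4a14, Acot1, Pdk4, Ehhadh, Cpt1a, Fgf21 and Vnn1, which are 8 of the 55414 genes in the count table and were picked by symbol as well-known targets of this receptor. All 8 passed the low-count filter and were among the 14114 genes tested. RNA was sequenced from whole liver of 27 female Balb/c mice aged 8 weeks, with 1 library per mouse. Of the 4 groups without carbon tetrachloride (CCl4), control (4 mice) received olive oil by intraperitoneal injection and PBS by the tail vein, 4MU (3 mice) received olive oil and oral 4-methylumbelliferone, a coumarin compound that lowers hyaluronan synthesis, and siLuc and siHAS2 (3 mice each) received siRNA in lipid nanoparticles (LNP) by the tail vein. Per the paper's methods 4MU was gavaged daily in carboxymethyl cellulose, and control mice received that vehicle by gavage. The siLuc siRNA is directed against luciferase, which mice lack, and serves as the non-targeting control for the siRNA against Has2, the gene of hyaluronan synthase 2. The other 4 groups received the hepatotoxin CCl4 in oil for 2 weeks, which causes liver injury and fibrosis: CCl4 alone (2 mice), CCl4+4MU, CCl4+siLuc and CCl4+siHAS2 (4 mice each). The CCl4 group with 2 mice is the reference of 3 comparisons, and nothing in the labels gives a litter, cage, batch or hour of collection.

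PPAR-alpha, encoded by Ppara, is a nuclear receptor that binds fatty acids, pairs with RXR and switches on genes for the breakdown of fat, most of all in fasted liver. Its classical response elements are repeats of a short core sequence with a single base between them. Its targets act at successive steps: microsomal omega-hydroxylation, peroxisomal and mitochondrial beta-oxidation, the sparing of glucose for fat, and secreted signals of the fasted state. A mouse liver given an activator of this receptor raises several of these genes together, and they are used as a readout of its activity.

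To show what lies before the start of the canonical transcript, the 1000 bases upstream of the canonical start of each protein-coding gene (GENCODE vM39, GRCm39) were searched on both strands for the stretch nearest to AGGTCANAGGTCA, the ideal repeat of the PPAR core sequence, counting mismatches over its 12 fixed letters. Each line gives the closest stretch in capitals with 8 bases on each side, written 5′ to 3′ on the strand of the gene.
Cyp4a10, chr4:115375377-115375405, plus strand, beginning 76 bases before the start: taaccaacTGAACTTTGAGATcaagattg
Cyp4a14, chr4:115353418-115353446, minus strand, beginning 94 bases before the start: aaactttgGATTCTGAGGTCAgtctctgt
Acot1, chr12:84055413-84055441, plus strand, beginning 835 bases before the start: ttccctttAGGTCGGAGGACAcagttctg
Pdk4, chr6:5496585-5496613, minus strand, beginning 275 bases before the start: agtcctagCGACCTGGGATCTatcccaag
Ehhadh, chr16:21607462-21607490, minus strand, beginning 919 bases before the start: attggaacTGCCCTTTGAACTttgttccc
Cpt1a, chr19:3372368-3372396, plus strand, beginning 895 bases before the start: ggcgtgctTGACCTCAGAGCTgcgactct
Fgf21, chr7:45265855-45265883, minus strand, beginning 961 bases before the start: agggtgacTGGCCTGTGGCCAgctgggag
Vnn1, chr10:23770519-23770547, plus strand, beginning 59 bases before the start: tcataaccTCACGTGTGACCTccaggcag
The stretches of Acot1, Ehhadh, Cpt1a and Vnn1 had 2 mismatches, a closeness that 12.7% of 21627 promoters reached. Those of Cyp4a10, Pdk4 and Fgf21 had 3 mismatches, reached by 62.2% of promoters, and that of Cyp4a14 had 4, reached by 99.5%. The canonical starts of Cpt1a and Fgf21 lie within the annotated span of the gene, and so do their printed stretches. These are matches of letters only, and binding was not measured here.

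Total counts were 7044386 to 29425937 per library, lowest in CCl4+siHAS2 mouse 4, and levels are given as CPM (counts scaled to the same library total) after TMM, a normalisation that sets libraries to a common middle. Has2 itself had 2 counts in the CCl4 mice, 1 in the CCl4+siLuc mice and 0 in every other library, so that its knockdown was not detectable at this depth. Summed levels of 7 hepatocyte markers were 126004 to 199366 CPM without CCl4 and 74128 to 176720 CPM with it. Markers of some other cells differed with CCl4: 8 stellate cell and myofibroblast genes summed to 42.6 to 142 CPM without it and 180 to 1044 CPM with it, and 5 cholangiocyte genes to 29.5 to 77.0 CPM and 109 to 692 CPM. The sums of other lists overlapped. Macrophage and Kupffer cell markers were at 185 to 578 CPM without CCl4 and 192 to 657 CPM with it. Endothelial markers were at 52.5 to 133 and 55.9 to 128 CPM. Lymphocyte markers were at 11.2 to 24.8 and 12.4 to 28.6 CPM, and neutrophil markers at 5.86 to 64.0 and 7.74 to 41.5 CPM. Of 5 adipocyte markers, another tissue rich in PPAR targets, none passed the filter, and their sum was at most 0.901 CPM. In RNA of whole liver, fewer cells of a type and less RNA per cell cannot be told apart.

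Cyp4a10 (chr4:115375461-115390849, plus strand, 13 exons in the canonical transcript) encodes a microsomal cytochrome P450 that hydroxylates the omega end of fatty acids. Its levels were 72.4, 102, 234 and 291 CPM in control, 116, 144 and 271 in 4MU, 95.4, 105.2 and 148 in siLuc, and 59.9, 118 and 313 in siHAS2. With CCl4 they were 17.9 and 141 in CCl4, 12.8, 83.0, 87.5 and 111 in CCl4+4MU, 7.80, 13.8, 16.6 and 18.5 in CCl4+siLuc, and 33.2, 34.8, 40.2 and 61.6 in CCl4+siHAS2. All 4 CCl4+siLuc mice lay below the 3 siLuc mice, all 4 CCl4+4MU mice below the 3 4MU mice, and the CCl4+siHAS2 and siHAS2 mice overlapped by 1 mouse. In the order of group means CCl4+siLuc came last, apart from CCl4+siHAS2 above it, and the remaining neighbours overlapped.

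Cyp4a14 (chr4:115343397-115353344, minus strand, 12 exons) is a neighbouring P450 of the same reaction and ranged widest of the 8, from 1.25 to 247 CPM. It stood at 30.5, 30.9, 86.6 and 183 CPM in control, 24.5, 236 and 247 in 4MU, 21.9, 39.8 and 66.4 in siLuc, and 24.5, 39.2 and 114 in siHAS2. In the CCl4 mice it was 9.88 and 175 CPM, in CCl4+4MU 3.40, 34.1, 35.1 and 110, in CCl4+siLuc 1.25, 3.43, 4.68 and 15.3, and in CCl4+siHAS2 9.35, 26.5, 28.4 and 132. Mice of the same group lay far apart, as in CCl4+4MU, and of the 4 arms siLuc was the one in which every mouse with CCl4 lay below every mouse without it.

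Acot1 (chr12:84056256-84065145, plus strand, 3 exons) encodes a cytosolic thioesterase that releases fatty acids from coenzyme A. Without CCl4 it was at 6.85, 12.9, 19.5 and 32.4 CPM in control, 11.5, 13.9 and 24.4 in 4MU, 10.3, 29.6 and 33.8 in siLuc, and 10.9, 14.6 and 18.5 in siHAS2. With CCl4 it was at 5.50 and 17.2 CPM in CCl4, 3.92, 6.07, 6.58 and 7.05 in CCl4+4MU, 4.43, 5.09, 7.2 and 10.6 in CCl4+siLuc, and 8.31, 8.98, 14 and 16.6 in CCl4+siHAS2. The CCl4+4MU mice all lay below the 4MU mice, whereas in the other arms the mice with and without CCl4 overlapped.

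Ehhadh (chr16:21580036-21606563, minus strand, 7 exons) encodes the bifunctional enzyme of the peroxisomal beta-oxidation of fatty acids. Its levels without CCl4 were 169, 307, 363 and 366 CPM in control, 187, 204 and 255 in 4MU, 144, 395 and 439 in siLuc, and 229, 307 and 336 in siHAS2. With CCl4 they were 123 and 234 in CCl4, 154, 169, 182 and 226 in CCl4+4MU, 131, 136, 157 and 211 in CCl4+siLuc, and 125, 194, 219.9 and 226 in CCl4+siHAS2. All 4 CCl4+siHAS2 mice lay below the 3 siHAS2 mice, the highest mouse with CCl4 was CCl4 mouse 2 at 234 CPM, and siLuc mouse 1 at 144 CPM lay among the treated mice.

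Cpt1a (chr19:3371853-3437996, plus strand, 19 exons) encodes the enzyme that commits fatty acids to entry into mitochondria. It was at 131, 193, 327 and 411 CPM in control, 148, 169 and 200.3 in 4MU, 265, 309 and 399 in siLuc, and 189, 194 and 238 in siHAS2. With CCl4 it was at 234 and 431 CPM in CCl4, 238, 306, 364 and 392 in CCl4+4MU, 219, 224, 256 and 286 in CCl4+siLuc, and 221, 228, 337 and 455 in CCl4+siHAS2. The CCl4+4MU mice all lay above the 4MU mice, and the mice of the other arms overlapped.

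Pdk4 (chr6:5483097-5496339, minus strand, 11 exons) encodes a kinase that shuts off pyruvate dehydrogenase and so spares glucose while fat is burnt. Its levels were 2.34, 4.13, 4.25 and 13.5 CPM in control, 2.77, 12.8 and 14 in 4MU, 3.15, 24.4 and 48.9 in siLuc, and 6.34, 6.75 and 9.48 in siHAS2. The 14 mice with CCl4 kept to a narrower range, with 5.55 and 11.5 CPM in CCl4, 5.45, 6.80, 7.10 and 8.88 in CCl4+4MU, 6.96, 10.2, 11.2 and 11.2 in CCl4+siLuc, and 7.51, 7.83, 9.81 and 15.0 in CCl4+siHAS2. The highest levels came from siLuc mice 2 and 3, and siLuc mouse 1 was among the lowest.

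Fgf21 (chr7:45263301-45266963, minus strand, 3 exons) encodes a hormone that the liver secretes in fasting and under stress. It was the lowest of the 8, at 9 to 368 counts per library. Its levels were 0.818, 1.65, 1.68 and 2.82 CPM in control, 1.18, 2.03 and 7.5 in 4MU, 4.46, 4.96 and 5.10 in siLuc, and 1.41, 1.85 and 2.22 in siHAS2. With CCl4 they were 0.681 and 1.85 in CCl4, 1.22, 2.99, 3.49 and 13.1 in CCl4+4MU, 0.762, 1.08, 2.86 and 7.02 in CCl4+siLuc, and 1.2, 2.69, 4.30 and 11.2 in CCl4+siHAS2. The 3 siLuc mice lay close together, above all control and all siHAS2 mice, whereas single mice of the CCl4+4MU, CCl4+siLuc and CCl4+siHAS2 groups reached 13.1, 7.02 and 11.2 CPM.

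Vnn1 (chr10:23770586-23781241, plus strand, 7 exons) encodes vanin 1, a pantetheinase on the cell surface that yields cysteamine. It was at 5.38, 6.14, 6.21 and 12.3 CPM in control, 4.56, 5.43 and 13.6 in 4MU, 3.95, 4.96 and 8.53 in siLuc, and 4.81, 6.64 and 8.0 in siHAS2. In CCl4 it was at 19.7 and 44.3 CPM, above all 25 other mice, against 6.50, 7.69, 9.08 and 9.25 in CCl4+4MU, 6.90, 9.61, 12.5 and 15.2 in CCl4+siLuc, and 9.75, 11.4, 11.6 and 14.7 in CCl4+siHAS2. The CCl4 mice were the highest of all and also differed from each other.

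**Figure D1:**
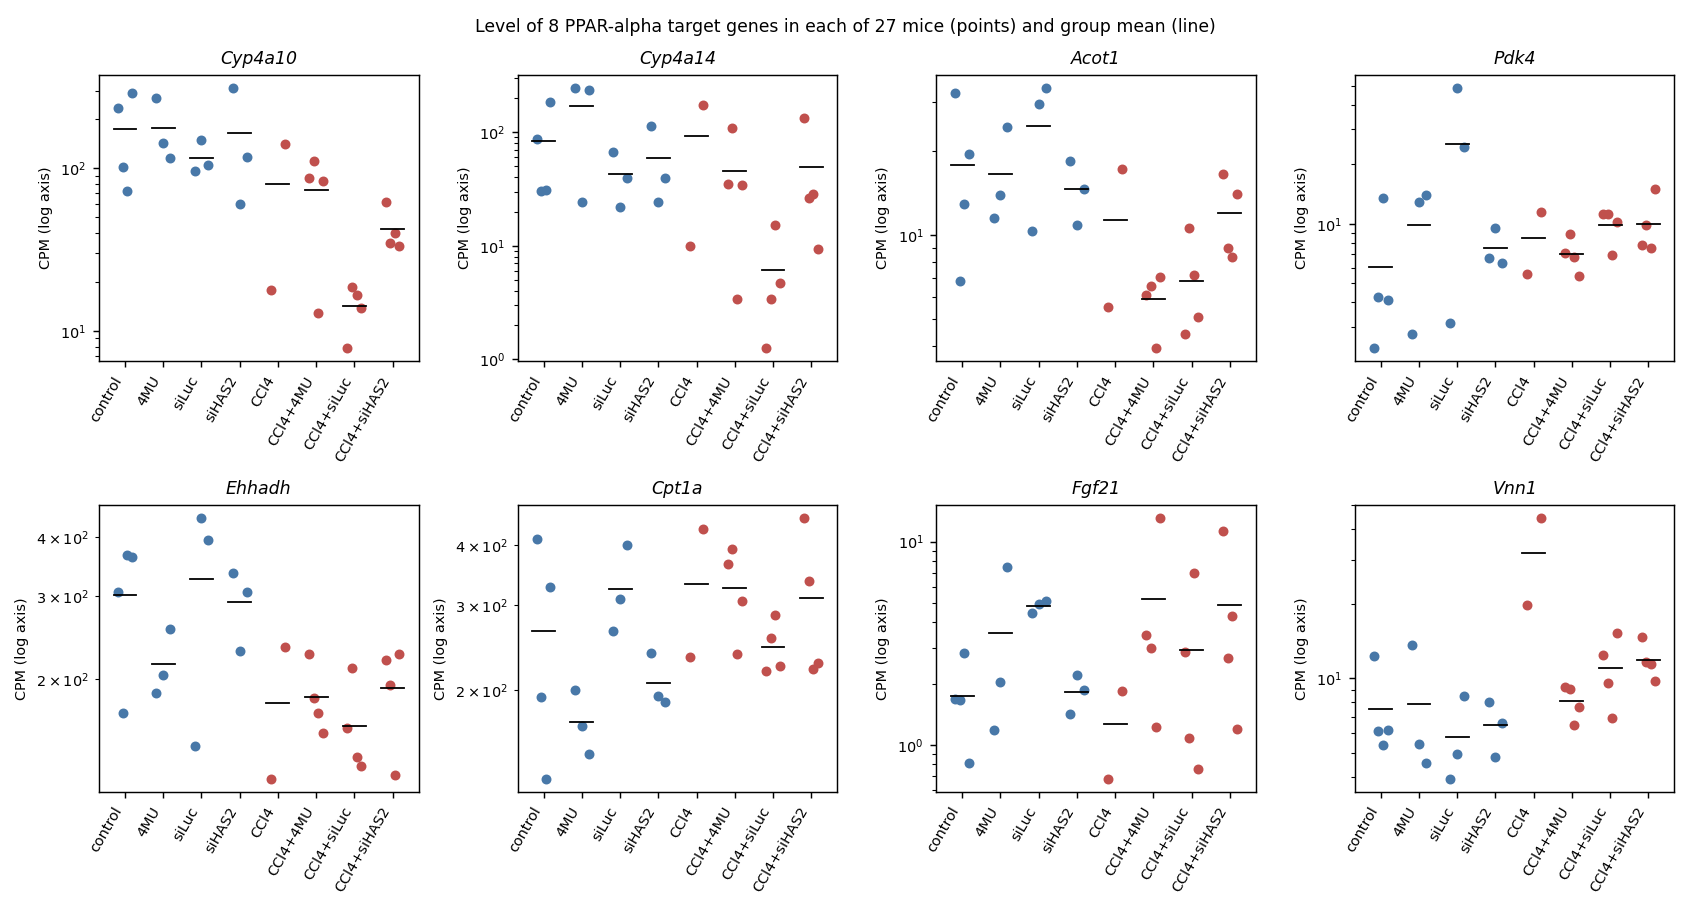
Level of each of the 8 genes in CPM on a log axis, with 1 point per mouse in 8 groups (blue without CCl4, red with CCl4) and a line at the group mean. The group mean was lowest in CCl4+siLuc for Cyp4a10 and Cyp4a14, at 14.2 and 6.17 CPM, with CCl4+4MU mouse 3 among its points, and both CCl4 mice were the highest for Vnn1.

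Per kilobase of merged exon length, taken over all annotated transcripts of a gene, the 8 genes differed widely in level. For Cpt1a this length was 10940 bases, against 6594 in the canonical transcript, so the order of genes close in level can depend on the length taken. In control mice Ehhadh was at 97.2 ± 29.7 CPM per kb (SD, n = 4), Cyp4a10 at 82.8 ± 49.5, Cyp4a14 at 31.1 ± 27.1, Cpt1a at 24.3 ± 11.6, Acot1 at 4.56 ± 2.79, Vnn1 at 2.17 ± 0.926, Pdk4 at 1.60 ± 1.33 and Fgf21 at 1.28 ± 0.603. Taken over all 8 genes, 53 of the 56 neighbouring pairs in the order of group means overlapped in their mice. The same share over all tested genes was not computed, so this count only describes the 8 genes. The 3 pairs that did not overlap were the lowest and second lowest groups for Cyp4a10 (CCl4+siLuc below CCl4+siHAS2) and Cyp4a14 (CCl4+siLuc below siLuc), and the highest and second highest for Vnn1 (CCl4 above CCl4+siHAS2). Some of these genes share sequence with close copies, as 19.7% of the windows of 85 bases in the Cyp4a10 transcript also occur in other genes, chiefly Cyp4a32 and Cyp4a31, 24.6% of those of Acot1, chiefly in Acot2 and Acot3, and 5.79% of those of Cyp4a14. For Pdk4 the share was 0.354%, and for Ehhadh, Cpt1a, Fgf21 and Vnn1 it was 0. Multimapping reads were not counted, and the effect of shared sequence on these levels was not tested.

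The effect of CCl4 was first taken as an average over the 4 arms, that is, with no further agent, with 4MU, with siLuc and with siHAS2. With edgeR's quasi-likelihood test and p-values adjusted by Benjamini-Hochberg over the whole table of tested genes, 4 of the 8 genes passed the threshold of 0.05, against a background of 51.9% of all tested genes, so that the share of the 8 was near that of genes at large. Cyp4a10 fell by 1.85 on the log2 scale (SE 0.34, adjusted p = 6.71e-05), Acot1 fell by 1.07 (SE 0.24, adjusted p = 0.000549) and Ehhadh fell by 0.66 (SE 0.16, adjusted p = 0.00143), whereas Vnn1 rose by 0.99 (SE 0.19, adjusted p = 0.000104). The omega-hydroxylase, the thioesterase and the peroxisomal enzyme were thus lower and the pantetheinase higher. Cyp4a14, with a log2 fold change of -1.21 (SE 0.53, adjusted p = 0.060), and Cpt1a, with 0.36 (SE 0.16, adjusted p = 0.0566), lay just beyond the threshold, and both passed it in DESeq2 (adjusted p = 0.0479 and 0.0398). Cyp4a14 was at -2.01 (edgeR adjusted p = 0.013) without CCl4 mouse 2 and at -0.97 (0.16) without CCl4 mouse 1. Pdk4 at -0.25 (95% interval -0.87 to 0.38) and Fgf21 at 0.21 (-0.62 to 1.03) did not pass. The median log2 fold change was -0.45 over the 8 genes and -0.02 over all tested genes. Among the cell type lists, 7 of 8 stellate cell and myofibroblast genes and 5 of 5 cholangiocyte genes rose, 4 of 7 hepatocyte genes fell, and the part of these shifts in the result was not tested.

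In the arm without a further agent, 1 of the 8 genes was called in CCl4 against control, where 34.0% of all tested genes were. Vnn1 rose by 2.1 on the log2 scale (SE 0.38, edgeR adjusted p = 0.000175), from a mean of 7.5 ± 3.20 CPM (SD, n = 4) to 32.0 ± 17.4 CPM (n = 2), with all CCl4 mice above all control mice. Cyp4a10 had a log2 fold change of -1.14 (95% interval -2.66 to 0.38) and Ehhadh one of -0.76 (-1.50 to -0.01, adjusted p = 0.109). The 2 CCl4 mice were far apart, and each value depended on which was kept: Cyp4a10 was at -3.26 (adjusted p = 0.0326) without CCl4 mouse 2 and at -0.29 (0.817) without CCl4 mouse 1, and Ehhadh at -1.27 (0.0716) and -0.35 (0.583). Such a fit takes the spread of the single CCl4 mouse from the other groups, and without control mouse 2 Ehhadh was at -0.94 (0.0477).

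In the 4MU arm 2 of the 8 genes were called, against 23.7% of all tested genes. In CCl4+4MU against 4MU mice Acot1 fell by 1.49 on the log2 scale (SE 0.45, edgeR adjusted p = 0.0187) and Cpt1a rose by 0.92 (SE 0.31, adjusted p = 0.0315), each without overlap of the mice. Vnn1, called in the arm without a further agent, had a log2 fold change of 0.05 here (95% interval -0.69 to 0.79). Both calls were fragile. That of Acot1 was lost without 4MU mouse 3 (adjusted p = 0.135) or CCl4+4MU mouse 3 (0.057). That of Cpt1a was lost without 4MU mouse 2 (0.0864), 4MU mouse 3 (0.127), CCl4+4MU mouse 1 (0.0679) or CCl4+4MU mouse 2 (0.0763). Fewer of all tested genes were called in these fits too, at 17.6% without 4MU mouse 2 and 15.1% without 4MU mouse 3. Without CCl4+4MU mouse 1, 2 or 3 the share was 19.9%, 22.4% or 20%. With the level of 8 clock output genes as a covariate, added after the data were seen, the values were -1.41 (adjusted p = 0.0659) for Acot1 and 0.68 (adjusted p = 0.158) for Cpt1a.

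The siLuc arm held the most calls, with 3 of the 8 genes against 24.2% of all tested genes. In CCl4+siLuc against siLuc mice Cyp4a10 fell by 3.04 on the log2 scale (SE 0.64, edgeR adjusted p = 0.00124), from 116 ± 28.1 CPM (SD, n = 3) to 14.2 ± 4.67 CPM (n = 4). Acot1 fell by 1.85 (SE 0.45, adjusted p = 0.00409) and Ehhadh by 1.04 (SE 0.31, adjusted p = 0.0154). Cyp4a14 had a log2 fold change of -2.83 (SE 1.06, adjusted p = 0.0525), Pdk4 one of -1.36 (adjusted p = 0.0834) and Vnn1 one of 0.92 (adjusted p = 0.0704), so that the median over the 8 genes was -1.2, and -0.03 over all tested genes. The Ehhadh call was lost without siLuc mouse 2 (adjusted p = 0.112), siLuc mouse 3 (0.0672) or CCl4+siLuc mouse 4 (0.052). In those fits, in that order, 18.7%, 22.3% and 18.8% of all tested genes were called. Without CCl4+siLuc mouse 3, Cyp4a14 (-3.75, adjusted p = 0.0224) and Vnn1 (1.11, 0.0329) passed, without siLuc mouse 1 Pdk4 did (-1.88, 0.00969), and without siLuc mouse 3 Vnn1 did (1.32, 0.0294).

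In the siHAS2 arm 1 of the 8 genes was called, against 12.8% of all tested genes. Cyp4a10 fell by 1.94 on the log2 scale (SE 0.62, edgeR adjusted p = 0.0399), from 164 ± 133 CPM (SD, n = 3) in siHAS2 to 42.5 ± 13.1 CPM (n = 4) in CCl4+siHAS2 mice. The call was lost without siHAS2 mouse 1 (log2 fold change -1.06, adjusted p = 0.333), without siHAS2 mouse 3 (0.0574) and without CCl4+siHAS2 mouse 2 (0.0964), 3 (0.0914) or 4 (0.0889). Fewer of all tested genes were called there too, at 7.75%, 7.43%, 9.22%, 8.61% and 11.2% in that order. Ehhadh had a log2 fold change of -0.61 (95% interval -1.24 to 0.03), with all CCl4+siHAS2 mice below all siHAS2 mice, and Fgf21 one of 1.47 (-0.16 to 3.10). The direction of Cyp4a10 was the same in each of the 4 arms, at -1.14, -1.26, -3.04 and -1.94.

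**Figure D2:**
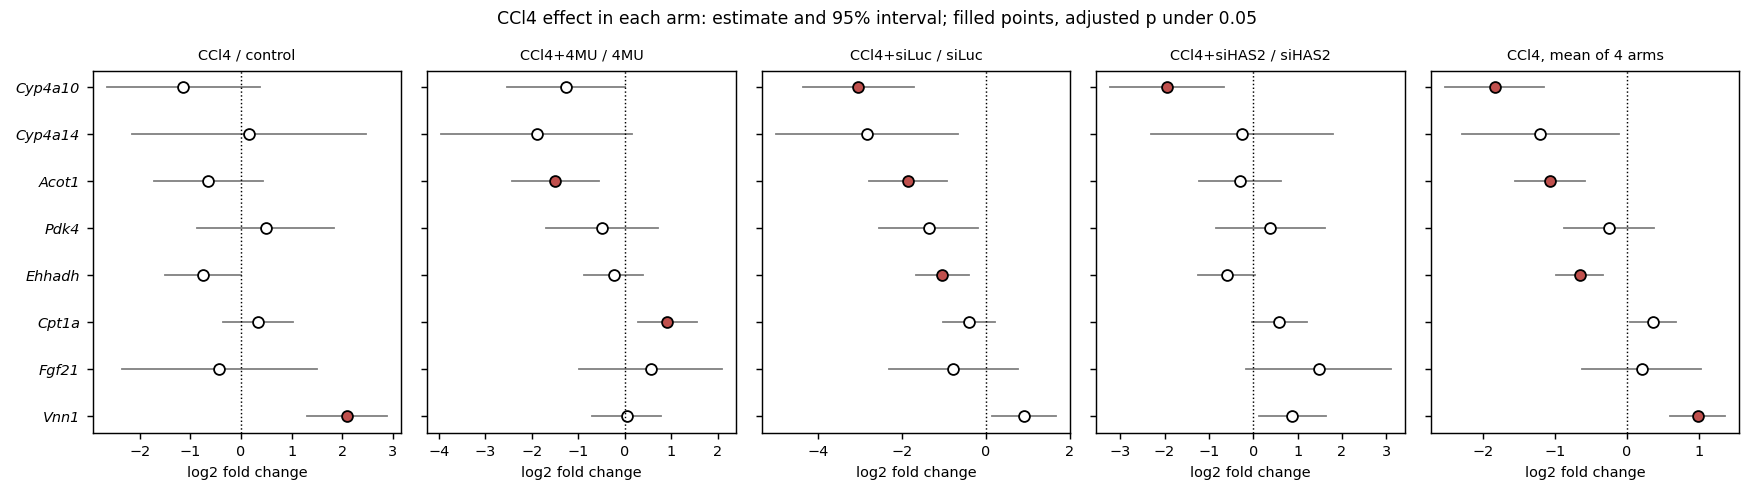
Log2 fold change of the 8 genes with CCl4 in each arm and averaged over the 4 arms, on the x axis, with the 95% interval as a line and a filled point where the adjusted p was under 0.05. Cyp4a10 lay left of 0 in every panel, and Vnn1 lay at 2.1 without a further agent and at 0.05 with 4MU.

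How the agents changed these genes in CCl4-treated mice was asked next. The comparisons share the 2 CCl4 mice as reference. In CCl4+4MU against CCl4 mice 1 of the 8 genes was called, against 18.3% of all tested genes, as Vnn1 fell by 1.98 on the log2 scale (SE 0.38, edgeR adjusted p = 0.0016). In CCl4+siHAS2 against CCl4 mice 1 was called, against 14.4% of all tested genes, and it was again Vnn1, which fell by 1.42 (SE 0.38, adjusted p = 0.0158). In CCl4+siLuc against CCl4 mice no gene of the 8 was called by edgeR, where 0.248% of all tested genes were, although Vnn1 stood at -1.53 (SE 0.38, adjusted p = 0.0695) and its mice lay below both CCl4 mice in all 3 treated groups. In that comparison 3 of the 8 had an unadjusted p under 0.05, against 14.2% of all tested genes, DESeq2 called 2 (Cyp4a14 and Vnn1), against 1.96%, and limma-voom 1 (Vnn1), against 1.24%. Without CCl4 mouse 2, which had the highest Vnn1 level of all, Vnn1 was at -1.3 with 4MU and at -0.75 with siHAS2. Without CCl4 mouse 1 it was at -2.46 and -1.90. With 1 CCl4 mouse left, the spread is taken from the other groups, so only the sizes are given. The fall was smaller without mouse 2 in both comparisons, so its size rested in part on that mouse.

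The P450 genes were lowest with the control siRNA. In CCl4+siLuc against CCl4 mice Cyp4a14 had a log2 fold change of -3.94 (95% interval -6.30 to -1.59, edgeR adjusted p = 0.111) and Cyp4a10 one of -2.49 (-3.90 to -1.09, adjusted p = 0.0963), neither of which passed. Both sizes rested on CCl4 mouse 2: without it Cyp4a14 was at -0.73 (adjusted p = 0.973) and Cyp4a10 at -0.35 (0.981), and Vnn1 at -0.84 (0.714). Without CCl4 mouse 1 they were at -4.86 (adjusted p = 0.0456), -3.32 (0.0258) and -2.0 (0.0279), and without CCl4+siLuc mouse 4 Cyp4a10 (-2.48, 0.0458) and Vnn1 (-1.72, 0.0121) passed. CCl4+siHAS2 against CCl4+siLuc, the comparison of the Has2 siRNA with its own control, called 0 of the 8 by edgeR, DESeq2 and limma-voom, against 1.09% of all tested genes by edgeR. There, 2 of the 8 had an unadjusted p under 0.05, against 16.6% of all tested genes: Cyp4a14 at 3.05 (0.93 to 5.16, adjusted p = 0.128) and Cyp4a10 at 1.59 (0.36 to 2.82, adjusted p = 0.170), the latter with all CCl4+siHAS2 mice above all CCl4+siLuc mice. Fgf21 was at 2.02 (0.07 to 3.97) with 4MU, 1.14 (-0.79 to 3.06) with siLuc and 1.97 (0.02 to 3.92) with siHAS2, each against CCl4 and none past the threshold.

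**Figure D3:**
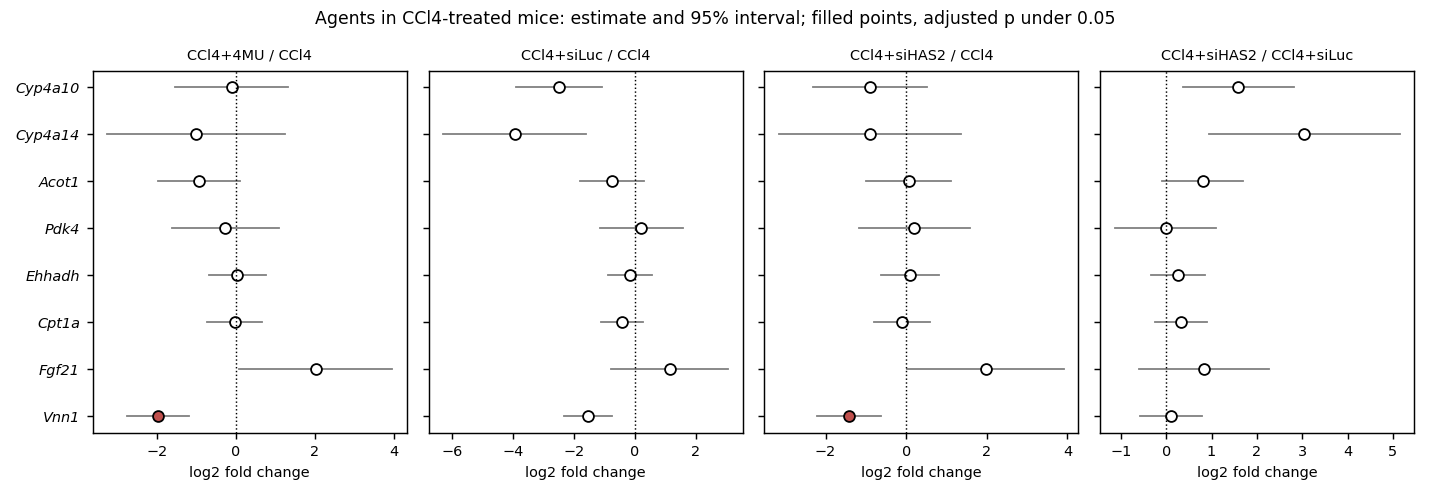
Log2 fold change of the 8 genes between CCl4-treated groups on the x axis, with the 95% interval as a line and a filled point where the adjusted p was under 0.05. Vnn1 lay left of 0 in the 3 panels with CCl4 as reference, at -1.98, -1.53 and -1.42, and at 0.11 between the siRNA groups.

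In mice without CCl4 the agents gave no call among the 8 by edgeR. This held for 4MU against control, where 0.00709% of all tested genes were called and none of the 8 had an unadjusted p under 0.05, for siLuc against control (0.213%) and for siHAS2 against siLuc (0.0425%), each with 1 of the 8 at an unadjusted p under 0.05, against 6.8% and 8.94% of all tested genes. That gene was Pdk4 both times, at 2.06 on the log2 scale (95% interval 0.86 to 3.26, adjusted p = 0.261) in siLuc against control and at -1.76 (-3.06 to -0.45, adjusted p = 0.376) in siHAS2 against siLuc mice, comparisons that share the siLuc mice. DESeq2 called none of the 8 in these 3 comparisons, and limma-voom called Pdk4 in the last pair (adjusted p = 0.0315 and 0.0393). Without siLuc mouse 1, which lacked the high Pdk4 level of the other siLuc mice, edgeR gave 2.58 (adjusted p = 0.0203) against control.

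Whether the CCl4 effect depended on the agent was tested by an interaction term. For 4MU 1 of the 8 was called, against 5.67% of all tested genes: the CCl4 effect on Vnn1 with 4MU minus that without was -2.05 on the log2 scale (SE 0.53, edgeR adjusted p = 0.0319). It was lost without 4MU mouse 1 (-1.41, adjusted p = 0.0808), CCl4 mouse 2 (-1.36, 0.254), CCl4+4MU mouse 1 (-2.12, 0.0502) or CCl4+4MU mouse 4 (-2.02, 0.0584). Without CCl4 mouse 2, where the spread of the single CCl4 mouse left is taken from the other groups, 0.142% of all tested genes were called. For siHAS2 relative to siLuc 0 of the 8 were called by edgeR, DESeq2 or limma-voom, against 0.0354% of all tested genes by edgeR. There 4 of the 8 had an unadjusted p under 0.05, against 11.4% of all tested genes, namely Acot1 at 1.55 (95% interval 0.22 to 2.87), Pdk4 at 1.74 (0.03 to 3.45), Cpt1a at 0.98 (0.11 to 1.86) and Fgf21 at 2.24 (0.01 to 4.47), with adjusted p of 0.354, 0.425, 0.375 and 0.435.

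Ppara itself had a mean of 30.3 ± 16.8 CPM (SD, n = 4) in control with means of 24.8 to 38.9 CPM in the other groups, and was called in none of the 14 comparisons. Averaged over the arms its log2 fold change with CCl4 was 0.23 (SE 0.20, edgeR adjusted p = 0.357). Of 8 genes of the receptor and its cofactors, 2 fell in the averaged comparison and none rose. Among all tested genes 25.6% were called lower and 26.3% higher, so the share that fell was near that of genes at large. The 2 were Nr0b2, which encodes the repressor SHP, lower by 0.64 (SE 0.19), and Ncor1, a corepressor, lower by 0.37 (SE 0.10).

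The other genes of fat breakdown were taken from lists of known members, and each list is given by its calls with CCl4 averaged over the 4 arms, where 26.3% of all tested genes were called higher and 25.6% lower, and their median was -0.02. Over the 83 tested genes of these lists together 9 rose and 29 fell, so that 45.8% were called, a share not above the 51.9% of all tested genes. Of 9 genes of peroxisomal beta-oxidation 5 fell and 0 rose, with a median of -0.42. Among them Pex11a, which drives the division of peroxisomes, fell by 0.74 (SE 0.08, edgeR adjusted p = 1.93e-08), the thiolase Acaa1b by 0.73 (SE 0.20) and the isomerase Ech1 by 0.67 (SE 0.12).

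Of 14 genes of the mitochondrial carnitine shuttle and beta-oxidation 6 fell and 0 rose, with a median of -0.16. The falls were small, led by the isomerase Eci1 with 0.53 (SE 0.10), the dienoyl-CoA reductase Decr1 with 0.42 (SE 0.07) and Etfdh, which passes the electrons of beta-oxidation to the respiratory chain, with 0.39 (SE 0.11). In CCl4 against control alone, Hadhb, a subunit of the trifunctional protein, rose by 0.61 (SE 0.18). Of the genes of ketone body metabolism, Bdh1, which interconverts the ketone bodies, rose by 0.29 (SE 0.10), and in CCl4 against control Bdh1 and the transporter Slc16a6 rose by 0.68 (SE 0.21) and 1.02 (SE 0.36).

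The relatives of the listed genes changed unevenly. Of 5 tested acyl-CoA thioesterases other than Acot1, 3 fell and 0 rose: Acot3 fell by 3.25 on the log2 scale (SE 0.25, edgeR adjusted p = 7.77e-11), Acot4 by 1.48 (SE 0.10) and Acot12 by 0.43 (SE 0.08). Acot3 was at 49.1 to 141 CPM in control, 52.3 to 77.1 in 4MU, 131 to 145 in siLuc and 35.2 to 85.4 in siHAS2, against 2.41 to 5.01 in CCl4, 6.23 to 25.8 in CCl4+4MU, 5.34 to 12.8 in CCl4+siLuc and 8.20 to 12.8 in CCl4+siHAS2. No mouse with CCl4 reached the level of any mouse without it. Of 4 tested genes of omega-oxidation, 2 fell and 1 rose: the aldehyde dehydrogenase Aldh3a2 fell by 0.95 (SE 0.12) and Cyp4f14 by 0.83 (SE 0.13), and Cyp4a31 rose by 1.43 (SE 0.25) from 0.801 to 3.56 CPM without CCl4 to 1.60 to 7.69 CPM with it, while Cyp4a10, with which it shares sequence, fell. Reads that mapped to several places were not counted, and the effect of this on Acot1 and Acot3 or on Cyp4a10 and Cyp4a31 was not tested.

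Among 7 genes of fatty acid uptake and activation 4 fell and 1 rose, with Fabp1, the fatty acid binding protein of hepatocytes, lower by 1.34 (SE 0.12, edgeR adjusted p = 2.01e-09), the acyl-CoA synthetase Slc27a5 lower by 0.93 (SE 0.18) and the scavenger receptor Cd36 higher by 0.63 (SE 0.18). Among 6 lipid droplet and secreted targets 2 fell and 0 rose: Apoa5, a regulator of plasma triglyceride, by 1.17 (SE 0.18) and G0s2, an inhibitor of lipolysis, by 0.76 (SE 0.24). In CCl4 against control the droplet proteins Plin2 and Cidec rose by 0.86 (SE 0.32) and 1.26 (SE 0.48), whereas Apoa5 fell by 1.91 (SE 0.43). Of the 5 genes of FGF21 receptors, Fgfr1 rose by 1.3 (SE 0.16) and Fgfr3 fell by 0.36 (SE 0.12), and Klb, Fgfr2 and Fgfr4 did not pass.

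Lists of other factors that act on Fgf21 and Pdk4 were read too. Of 8 targets of ATF4, a stress factor known to raise Fgf21, 3 rose and 1 fell with CCl4, led by Psat1, up by 4.85 (SE 0.25), Asns, up by 3.35 (SE 0.37), and Atf3, up by 1.22 (SE 0.19), while Fgf21 did not pass. Of 5 glucocorticoid targets 2 rose and 1 fell, as Zbtb16 rose by 0.74 (SE 0.19) and Fkbp5 by 0.41 (SE 0.14) and Tsc22d3 fell by 0.68 (SE 0.18).

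**Figure D4:**
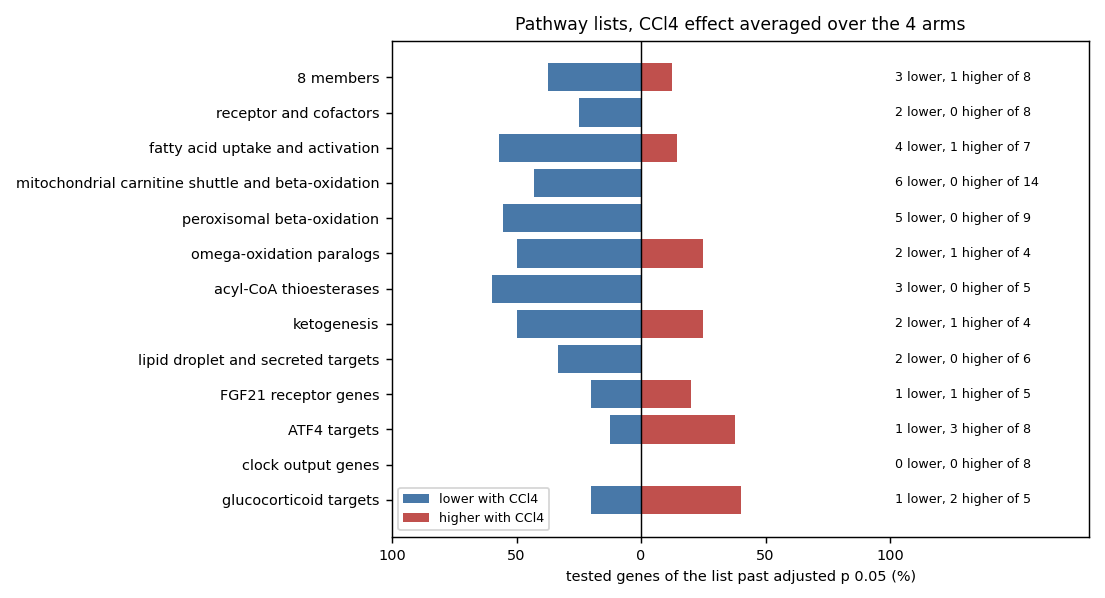
Share of the tested genes of each list, in percent on the x axis, that passed adjusted p 0.05 with CCl4 averaged over the 4 arms, to the left (blue) if lower and to the right (red) if higher, with counts beside each bar. Peroxisomal beta-oxidation had 5 lower and 0 higher of 9 and mitochondrial beta-oxidation 6 lower and 0 higher of 14, where 25.6% of all tested genes were lower and 26.3% higher.

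In CCl4+4MU against CCl4 mice 10 of the 83 genes of all lists passed, or 12%, against 18.3% of all tested genes. Apoa5 rose by 1.37 (SE 0.42), Slc27a5 by 1.24 (SE 0.41) and Acot3 by 1.96 (SE 0.55), and Plin2 fell by 1.03 (SE 0.32), Fabp1 by 0.79 (SE 0.25), Hadhb by 0.86 (SE 0.18) and Decr1 by 0.86 (SE 0.15), all by edgeR with adjusted p under the threshold. The median log2 fold change of the 9 peroxisomal genes was 0.24 in this comparison, and none of them was called by edgeR. Among the ATF4 targets Chac1 rose by 2.4 (SE 0.72) and Psat1 fell by 1.41 (SE 0.40), and among the glucocorticoid targets Tat rose by 1.80 (SE 0.48).

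Since mice of the same group differed so widely, the deviation of each mouse from its group mean in log2 CPM was compared between genes over the 27 mice. In all, 44 relations were computed, 28 between the 8 genes, 8 with Ppara and 8 with Dbp, an output gene of the circadian clock, with 100000 permutations within groups and Benjamini-Hochberg adjustment. Of the 28 pairs 23 had a positive Pearson r and 7 passed. The share of pairs among all tested genes that would pass was not computed. Whether these counts are particular to the 8 genes was therefore not tested. Cyp4a10 and Cyp4a14 moved together (r = 0.80, permutation p = 0.00016, adjusted p = 0.00235, Spearman rho = 0.78, p = 0.00035), and r was 0.72 without the 2 mice farthest from the median. Cyp4a10 and Cpt1a gave r = 0.73 (permutation adjusted p = 0.00235, rho = 0.81, 0.71 without those mice), and Acot1 and Ehhadh gave r = 0.79 (permutation adjusted p = 0.00959, rho = 0.77, 0.69 without). The other pairs that passed were Cyp4a14 and Cpt1a (r = 0.66), Cpt1a and Vnn1 (0.61), Cyp4a10 and Acot1 (0.60) and Cyp4a10 and Vnn1 (0.55), for which the permutation adjusted p were 0.00959, 0.0102, 0.0264 and 0.0454. No pair with Fgf21 passed.

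None of the 8 passed with Ppara, the highest being Vnn1 (r = 0.57, permutation adjusted p = 0.0667). Pdk4 passed with Dbp (r = -0.68, permutation p = 0.00011, adjusted p = 0.00235, rho = -0.71, -0.69 without the 2 farthest mice): within a group, mice with more Dbp had less Pdk4. Dbp ranged from 0.733 to 99.1 CPM over the 27 mice, and the hour of collection is not given in the sources used here. The 8 clock output genes had a median log2 fold change of -0.21 in the averaged comparison, and their summed level was 97.2 to 513 CPM without CCl4 and 63.8 to 440.3 CPM with it. With the clock covariate, Pdk4 in CCl4+siLuc against siLuc mice was at -1.59 (adjusted p = 0.00747) against -1.36 (0.0834) without it.

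**Figure D5:**
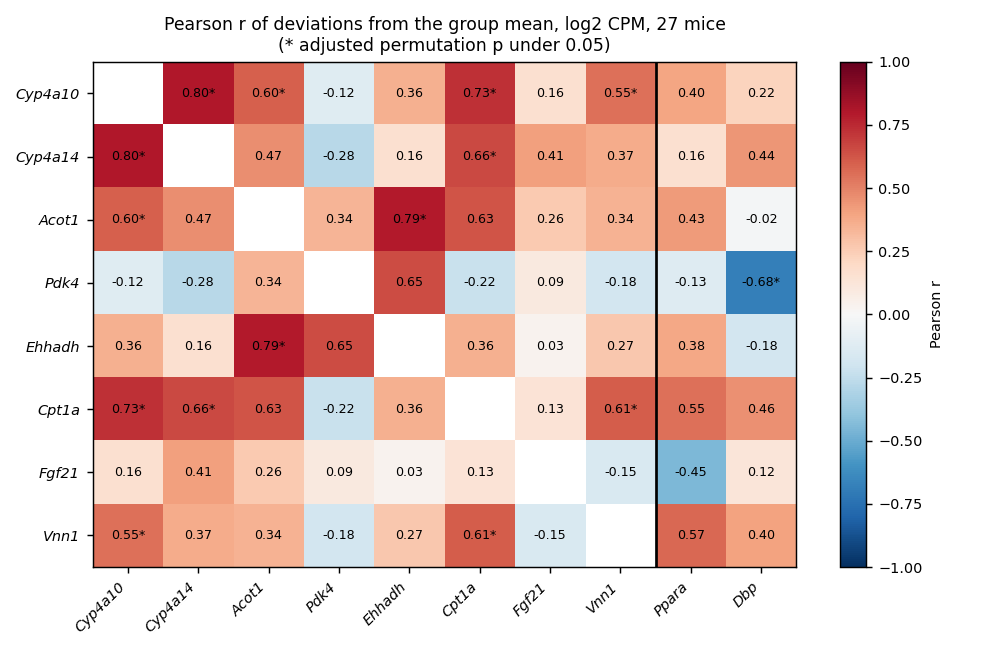
Pearson r between genes of the deviations of 27 mice from their group mean in log2 CPM, with the 8 genes in rows and the 8 genes, Ppara and Dbp in columns, and a star where the adjusted permutation p was under 0.05. The pairs among Cyp4a10, Cyp4a14 and Cpt1a had r of 0.66 to 0.80, Acot1 and Ehhadh had 0.79, and Pdk4 stands at -0.68 with Dbp.

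The genes with the most similar pattern over all 27 libraries, as a description by Pearson's r of log2 CPM with libraries that share treatments, included several genes of lipid metabolism. For Cyp4a14 they were Retsat (r = 0.88), a retinol saturase, Klf1 (0.79) and Eci2 (0.78), an isomerase of beta-oxidation. For Ehhadh they were Etfdh (0.87), Aldh9a1 (0.83) and Decr2 (0.81), and for Acot1 Mgll (0.80), a lipase of monoglycerides, Etfdh (0.79) and Acad11 (0.78). Cyp4a10 was most like Amigo2 (0.82), Pi4ka (0.82) and Ctcflos (0.81), Cpt1a like Npc1 (0.74), Nup210 (0.73) and Bdh1 (0.72), and Pdk4 like Lipa (0.73), Npas2 (0.72), a partner in the clock, and Ccng2 (0.71). Fgf21 was most like Lgals4 (0.76), Rbpms (0.73) and Aldoa (0.72). Vnn1 was most like Rcc2 (0.89), Cad (0.89), the first enzyme of pyrimidine synthesis, and Dhx9 (0.86).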

How the data were processed

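Poly(A) RNA of whole liver was made into stranded libraries (NEBNext Ultra II Directional) and sequenced in pairs on a NextSeq500. Per the labels and methods, the authors trimmed reads with Trimmomatic 0.39, aligned them with HISAT2 and counted them per gene with featureCounts without multimapping reads, and the deposited values are raw counts per Ensembl gene, with 1 column per mouse. The strand setting of the counting is not given in the sources used here.

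Genes were matched to GENCODE vM39 (GRCm39), which held 54749 of 55414 identifiers. The 14114 genes that averaged 10 or more counts over the 27 libraries were tested with edgeR 4.0.16 (R 4.3.3), by TMM and the quasi-likelihood test, in 1 fit of all 8 groups without covariates. P-values were adjusted by Benjamini-Hochberg at 0.05, and the SE was the fold change divided by the root of F. Every adjusted p is from edgeR unless another tool is named. Since the labels name no separate cohorts, p-values measure the spread between these mice only. Log2 CPM for correlations used a prior count of 2. Alternatives were DESeq2 1.42.0, limma-voom (limma 3.58.1) with quality weights, DESeq2 size factors, other count filters, a block for the replicate number, fits of the compared groups alone, and each mouse left out. The scripts were tested on simulated data. The 8 genes, the gene lists and the tests were chosen with earlier results of these data known. From the lists, up to 3 called genes with the largest fold change were named, and a few of these are not reported here. Same-numbered mice of different groups are not stated to be paired, and in no comparison did every such pair deviate together. Depth was 7044386 to 29425937 counts per library, which leaves genes of few counts, such as Has2, without precision.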

Additional observations from a re-analysis of the deposited data

Results flagged for a closer look

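Within groups of 4 mice, 3 of 32 gene and group combinations held a mouse whose gap exceeded Dixon's 95% critical value. The gap to the nearest neighbour was taken as a share of the range in CPM. The chance rate of about 5% assumes normally distributed values, which was not tested for CPM. All 3 were on the high side, and the gaps were not tested on the log scale. Whether these mice stand out more than chance gives was therefore not tested. Cyp4a14 was at 132 CPM in CCl4+siHAS2 mouse 1, against 9.35 to 28.4 CPM in the other mice of its group. Pdk4 was at 13.5 CPM in control mouse 3, against 2.34 to 4.25 CPM, and Vnn1 was at 12.3 CPM in control mouse 1, against 5.38 to 6.21 CPM. The effect of CCl4 on Vnn1 differed between mice with and without 4MU, by -2.05 on the log2 scale (SE 0.53, edgeR adjusted p = 0.0319). Without CCl4 mouse 2 it was -1.36 (adjusted p = 0.254), in a fit that takes the spread of the single CCl4 mouse left from the other groups and in which 0.142% of all tested genes were called, against 5.67%.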

How the results depend on the processing

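The 4 calls averaged over the arms (Cyp4a10, Acot1, Ehhadh and Vnn1) held in all 34 alternatives. Over the 14 called results, 266 of 289 alternative values kept direction and call, 23 kept direction but lost the call, and 0 reversed; 43 results that were not called changed sign under at least 1 alternative. Of the 8 genes, the number called without the low-count filter, with the share of all 31177 genes called in brackets, was 3 in CCl4 against control (14.9%), 4 in the 4MU arm (11.0%), 6 in the siLuc arm (11.2%), 3 in the siHAS2 arm (6.31%), 6 averaged over the arms (25.6%), 3, 3 and 2 in CCl4+4MU, CCl4+siLuc and CCl4+siHAS2 against CCl4 (8.45%, 1.37% and 6.72%), 2 in CCl4+siHAS2 against CCl4+siLuc (2.1%), 2 in siLuc against control (0.459%), 1 in siHAS2 against siLuc (0.507%), and 2 and 4 for the interactions with 4MU and siHAS2 (4.45% and 0.975%). DESeq2 called 5 in the siLuc arm (26.4% of 14114 genes), 6 averaged over the arms (52.7%) and 2 in CCl4+siLuc against CCl4 (1.96%). Limma-voom called 2 in the siHAS2 arm (24.5%) and 1 each in CCl4+siLuc against CCl4 (1.24%), siLuc against control (0.595%) and siHAS2 against siLuc (1.21%). Fitting only the compared groups gave 2 in the siHAS2 arm (16.5%). The clock covariate, chosen after seeing the data, gave 0 in the 4MU arm (15.6%) and 5 in the siLuc arm (23.4%). Leaving out 1 mouse at a time gave 1 to 2 in CCl4 against control, 0 to 2 in the 4MU arm, 2 to 5 in the siLuc arm, 0 to 1 in the siHAS2 arm, 4 to 5 averaged over the arms, 0 to 1 in CCl4+4MU against CCl4, 0 to 3 in CCl4+siLuc against CCl4, 0 to 1 in CCl4+siHAS2 against CCl4, 0 to 1 in siLuc against control, 0 to 1 for the interaction with 4MU and 0 in the other comparisons. With the replicate block the number called was that of the fit without it in all 14 comparisons. Among them were 1 in CCl4 against control (32% of all tested genes) and 4 averaged over the arms (48.7%). In the leave-out fits with both CCl4 mice, 29.3% to 31.6% of all tested genes were called in CCl4 against control. The share was 15.1% to 22.4% in the 4MU arm, 16.9% to 26.2% in the siLuc arm and 7.27% to 12.5% in the siHAS2 arm. Averaged over the arms it was 48.8% to 52.9%. Against CCl4 it was 11.7% to 18.4% with 4MU, 0.0496% to 7.52% with siLuc and 8.8% to 13.1% with siHAS2. For siLuc against control it was 0.0992% to 0.198%, and for the interaction with 4MU 1.68% to 6.8%. The cause of these changes was not tested. Fgf21 had 9 to 368 counts per library, and the CCl4 group had 2 mice.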
